A study of Mus with 2 samples.

Results

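The hypoxic spots of both CT26 tumors were the 10% of spots in each section with the highest summed level of 8 genes that cells raise when oxygen is short (Car9, Vegfa, Slc2a1, Ndrg1, Bnip3, Egln3, Ankrd37 and Adm). They numbered 222 of 2219 spots in the control section and 195 of 1950 in the section from the mouse given recombinant mouse IL7 (rIL7), 417 of 4169 in all. A level is a number of unique molecular identifiers (UMIs, each one captured RNA molecule) per 1000000 UMIs of the spot or set of spots (CPM). The number of hypoxic spots per section was set by the rule and is not a result.

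Cells sense oxygen through prolyl hydroxylases that mark the hypoxia-inducible factors (HIF) for destruction. When oxygen falls, the hydroxylases slow down, HIF accumulates and genes for glucose uptake, glycolysis, pH control, mitophagy and vessel growth are transcribed. Solid tumors contain such areas where growth outpaces the blood supply, and myeloid cells that enter them are known to change their own gene expression.

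CT26 is a mouse colon carcinoma cell line, and the tumors grew after 200000 CT26 cells were injected under the skin of female BALB/c mice of 6 to 8 weeks. The treated mouse received 10 µg of rIL7 intraperitoneally on day 11 and again on day 13, the control mouse received PBS, and both tumors were taken on day 15. Each frozen tumor gave 1 section of 10 µm, read on a Visium slide, whose barcoded spots each capture RNA from a small region with several cells, often of more than one type. Both mice carried the same transplanted line in the same strain, and each group is 1 mouse, 1 section and 1 library, so animal, section, library and treatment cannot be told apart.

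Control hypoxic spots held 1972370 UMIs in all, with a median of 8285 per spot against 9746 in the other spots. Those of the rIL7 section held 2888012, with a median of 14257 against 12754. Mitochondrial transcripts were between 0.139% and 0.269% of UMIs in hypoxic and other spots of both sections. No test was run, because spots of one section are not replicates. Ratios carry an exact binomial 95% interval that covers counting error only, and fewer cells of a type and less RNA per cell cannot be told apart in a spot. The sections share 1702 spot barcodes, which are positions of the slide design and not shared cells.

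The 8 genes of the score cover several arms of the response. Car9 encodes a carbonic anhydrase at the cell surface, Slc2a1 the glucose transporter GLUT1, Vegfa a vessel growth factor, Bnip3 a mitophagy receptor, Egln3 one of the oxygen-sensing hydroxylases, Adm the vasodilator adrenomedullin, Ndrg1 a stress-responsive protein and Ankrd37 an ankyrin repeat protein. By the RefSeq annotation of GRCm38, Car9 lies on chromosome 4 from 43507026 to 43513729, Slc2a1 on chromosome 4 from 119108745 to 119137330, Vegfa on chromosome 17 from 46016993 to 46032377 and Ndrg1 on chromosome 15 from 66929318 to 66969641. Bnip3 lies on chromosome 7 from 138890836 to 138909506, Egln3 on chromosome 12 from 54178981 to 54203874, Ankrd37 on chromosome 8 from 45996908 to 46000414 and Adm on chromosome 7 from 110627657 to 110629820.

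Since these genes chose the spots, their own levels are a description. The last spot inside the control set had a summed level of 1383.4 CPM and the first one outside it 1378.9 CPM. In the rIL7 section the corresponding values were 1815.6 and 1811.7 CPM. Median scores were 2132 CPM in hypoxic and 475 CPM in other control spots, and 2408 and 519 CPM in the rIL7 section. The cutoff was therefore higher in the rIL7 section, where 325 spots (16.7%, 95% interval 15.0 to 18.4) reached the control cutoff, while 145 control spots (6.53%, 5.54 to 7.64) reached that of the rIL7 section. Ndrg1 and Bnip3 gave 28.1% and 27.5% of the score's UMIs in control hypoxic spots and 33.1% and 26.9% in rIL7 hypoxic spots. Egln3 and Adm each gave under 1% of the score's UMIs (0.343% to 0.424%).

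Each score gene was then measured in spots chosen by the other 7 genes alone, so that its own UMIs had no part in the choice. All 8 were higher in these spots in both sections. Car9 was at 30.9 CPM against 4.81 CPM in the control section (6.42-fold, 4.59 to 8.91) and at 39.6 against 6.57 CPM in the rIL7 section (6.03-fold, 4.69 to 7.74). Ndrg1 was 5.05-fold higher (4.71 to 5.42) in the control tumor and 4.58-fold (4.35 to 4.82) in the rIL7 tumor, and Slc2a1 was 3.23-fold and 3.27-fold higher. Vegfa showed the smallest ratio in the control section, at 2.25-fold (1.99 to 2.54), and was 2.60-fold higher (2.35 to 2.86) in the rIL7 section. Egln3 rested on 15 and 26 UMIs in the chosen spots, with ratios of 5.67 (2.82 to 11.0) and 6.85 (3.89 to 12). Adm was 8.08-fold higher (4.21 to 15.3) in the control tumor and 2.48-fold higher (1.58 to 3.80) in the rIL7 tumor, on 19 and 29 UMIs. Of the 4 genes given as markers of these spots (Car9, Ndrg1, Vegfa and Egln3), each was thus also higher where it had no say in the choice.

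**Figure D1:**
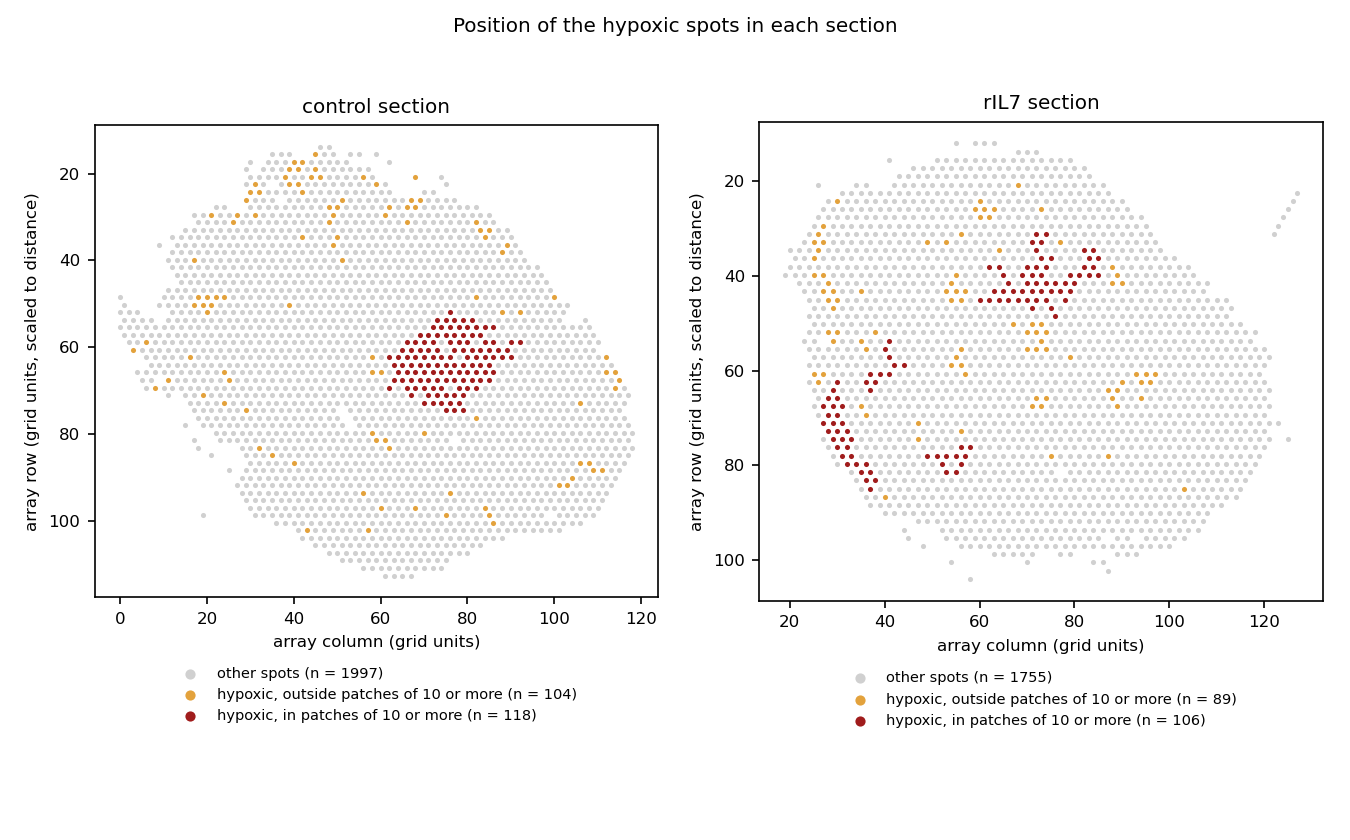
Position of the hypoxic spots in the control section (left) and the rIL7 section (right). Each point is 1 spot at its array column and row, in grid units; grey points are other spots, orange points hypoxic spots outside patches of 10 or more and red points hypoxic spots in such patches. The control section holds 1 red patch of 118 spots in its interior, and the rIL7 section 4 smaller ones.

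Hypoxic spots lay in connected patches, and the layout differed between the sections. In the control section 118 of the 222 spots (53.2%) formed a single patch, and no other patch reached 10 spots. The rIL7 section had 4 patches of 10 or more, with 54, 30, 11 and 11 spots, together 54.4% of its hypoxic spots. Single hypoxic spots with no hypoxic neighbour numbered 38 in the control tumor and 20 in the rIL7 tumor. Of all direct grid neighbours of a hypoxic spot, 53.0% were themselves hypoxic in the control tumor and 46.6% in the rIL7 tumor. The map of the spots shows the control patch in the interior.

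Position was not part of the rule. Spots at most 2 grid steps inside the outline of the main tissue piece were called edge spots. Of the hypoxic spots, 15.8% (95% interval 11.3 to 21.3) were edge spots in the control tumor and 12.3% (8.05 to 17.8) in the rIL7 tumor, against 18.4% and 17.6% of the other spots. The median distance from the outline was 12 steps for hypoxic and 7 for other spots in the control section, and 9 and 7 in the rIL7 section. At 16 to 22 steps from the outline, the deepest part of the control section, 28.5% of spots (22.9 to 34.5) were hypoxic, compared with 4.70% (2.81 to 7.33) at 7 to 9 steps. The deepest part of the rIL7 section, at 16 to 21 steps, had 16.1% (11.3 to 21.9), and its lowest share was 1.52% (0.416 to 3.85) at 5 to 6 steps. Median distances of the 4 rIL7 patches were 13, 2, 8 and 9 steps, against 16.5 steps for the control patch. The 104 control spots outside the patch had a median distance of 4 steps, and 34% of those on the main piece were at the edge. Keratinocyte genes were at 72.5 CPM in control hypoxic spots against 58.1 CPM in other spots. Without Slc2a1 in the score their log2 ratio was −0.98, and the control edge share was 12.3%. A link between keratinocyte genes and the edge spots was not tested.

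**Figure D2:**
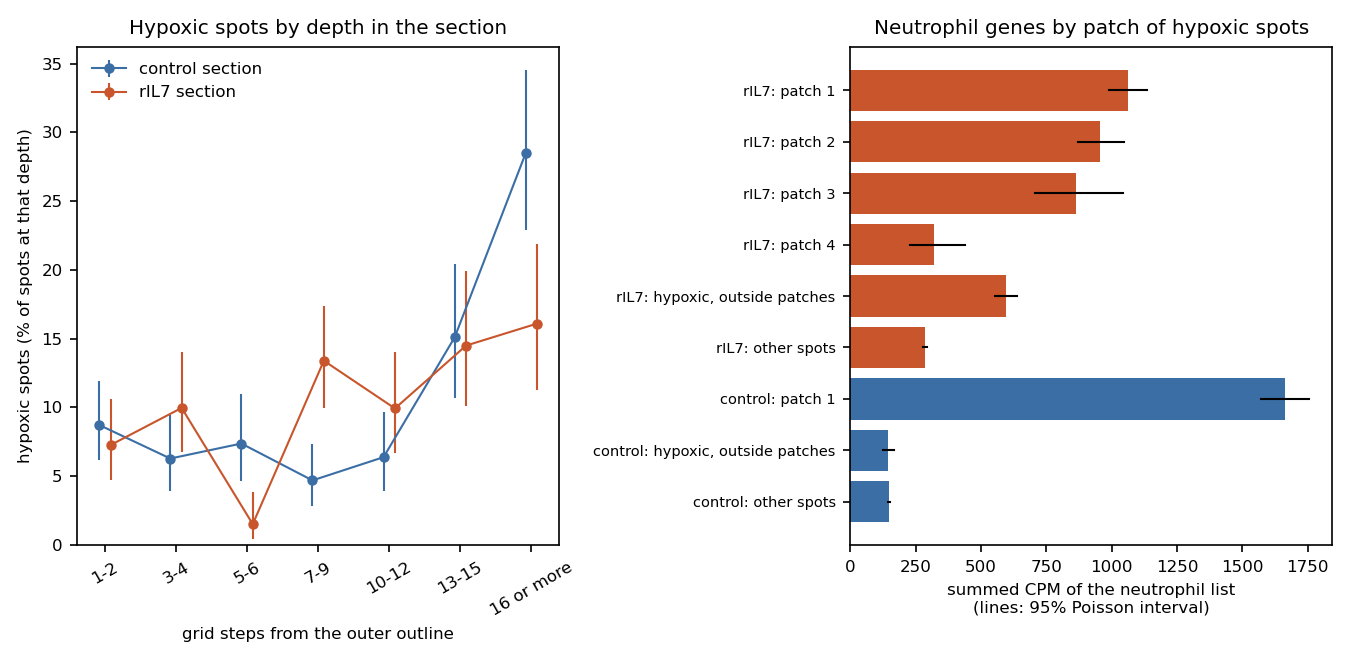
Left, percentage of spots that were hypoxic (vertical axis) by grid steps from the outer outline (horizontal axis), with 95% binomial intervals. Right, summed CPM of the neutrophil list in each patch of hypoxic spots, in hypoxic spots outside the patches and in other spots, with 95% Poisson intervals; blue is the control and orange the rIL7 section. The deepest bins have the highest shares in both sections, and the control patch stands at 1662.2 CPM against 146 CPM in the hypoxic spots outside it.

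Outside the score, 7608 genes had a mean level of at least 20 CPM over both sections and were compared between hypoxic and other spots. A gene was counted as higher or lower when its CPM differed at least 1.5-fold. In the control section 197 genes were higher (2.59% of the genes compared) and 307 lower (4.04%) in hypoxic spots. In the rIL7 section 213 were higher (2.80%) and 345 lower (4.53%). These shares are the background for the counts of list members below. The genes higher in both sections numbered 141, which is 71.6% of the control and 66.2% of the rIL7 genes, and 104 genes were lower in both (33.9% and 30.1%). Opposite directions occurred for 1 gene in each sense. Across the 7608 genes the log2 ratios of the sections had a Pearson correlation of 0.670 and a Spearman correlation of 0.627, where genes are not independent and the median log2 ratio was −0.07 in the control tumor and −0.11 in the rIL7 tumor.

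These counts depend on the scaling and on the patches. Higher genes made up 39.1% of the control and 38.2% of the rIL7 genes past 1.5-fold with CPM, 50.8% and 57.5% with TMM factors, and 57.4% and 62.7% with median-of-ratios factors, which moved the median log2 ratio to 0.00 and 0.01. When only hypoxic spots outside patches of 10 or more were kept, 104 genes were higher and 359 lower in the control section, 199 were higher and 475 lower in the rIL7 section, and 66 were higher in both.

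**Figure D3:**
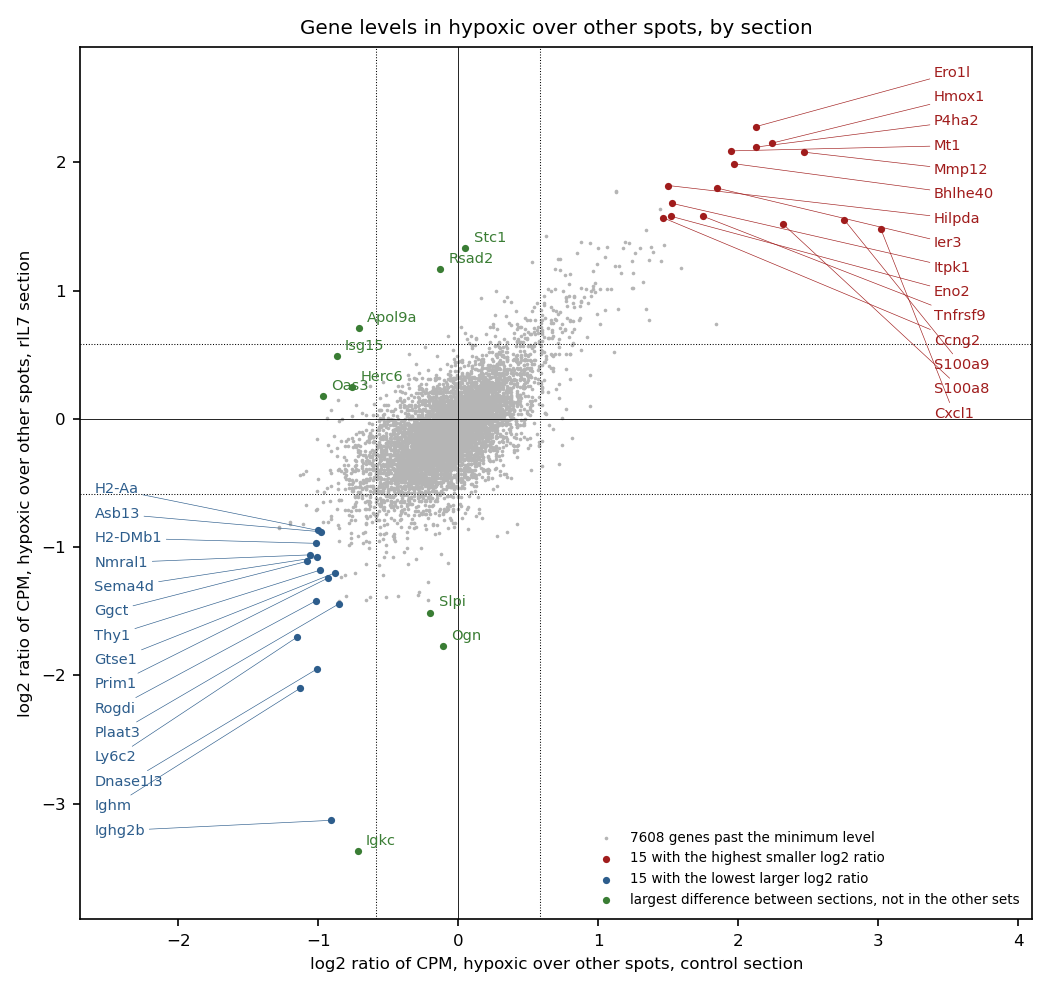
Log2 ratio of CPM in hypoxic over other spots for 7608 genes, control section on the horizontal and rIL7 section on the vertical axis; dotted lines mark 1.5-fold. Red, blue and green points are the named genes with the highest, the lowest and the most different ratios; Ighg2c, with 0 UMIs in control hypoxic spots, is outside the axes. The 15 red genes sit between 1.46 and 3.02 in the control section.

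Genes of glycolysis and lactate export were higher almost throughout. Their summed level was 20401 CPM in hypoxic and 11766 CPM in other spots of the control section (1.73-fold, 1.72 to 1.75), and 22059 against 11797 CPM in the rIL7 section (1.87-fold, 1.85 to 1.89). Of the 23 listed genes 19 passed the minimum level. At least 1.5-fold higher were 17 of them in the control tumor and 18 in the rIL7 tumor, beside 2.59% and 2.80% of all genes compared. The median log2 ratio of the 19 was 0.79 and 0.95. Nearly every step of the pathway took part, from the hexokinase Hk2 (2.33-fold and 2.58-fold) through the phosphofructokinase Pfkp (2.36 and 2.35) and the phosphoglycerate kinase Pgk1 (2.17 and 2.29) to the lactate dehydrogenase Ldha (1.63 and 1.77). The enolase Eno2 was at 381 against 132 CPM in the control section (2.87-fold, 2.65 to 3.12) and at 392 against 131 CPM in the rIL7 section (2.99-fold, 2.79 to 3.21). Slc16a3, the lactate exporter MCT4, was 2.36-fold (1.89 to 2.94) and 2.03-fold (1.72 to 2.39) higher. Pdk1, a kinase that keeps pyruvate out of the mitochondria, was 2.23-fold and 2.20-fold higher, and Gys1, the muscle-type glycogen synthase, 2.7-fold and 3.13-fold. The exceptions were Pfkm, at 1.12-fold (0.853 to 1.45) and 0.949-fold (0.757 to 1.18), and in the control section Hk1 at 1.47-fold.

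The glycolysis list also named largely the same places. Of the hypoxic spots, 75.2% (69.0 to 80.8) of the control and 78.5% (72.0 to 84.0) of the rIL7 spots were in the top 10% of their section by glycolysis genes, none of which is in the score. Control hypoxic spots ranged from 9329 to 31018 CPM of these genes with a median of 20909 CPM. In the other control spots the level ranged from 4850 to 29240 CPM with a median of 11584 CPM, so the sets overlapped. Medians in the rIL7 section were 21847 CPM in hypoxic and 10892 CPM in other spots.

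Other hypoxia-associated genes, a list of 40 with 30 past the minimum, summed to 9155 against 3962.4 CPM in the control section (2.31-fold, 2.27 to 2.35) and to 14138 against 5177.2 CPM in the rIL7 section (2.73-fold, 2.7 to 2.76). At least 1.5-fold higher were 18 of the 30 in the control tumor and 23 in the rIL7 tumor, beside 2.59% and 2.80% of all genes compared. None of the 30 was lower in either. Mt1, a metal-binding metallothionein, was at 2763 against 714 CPM in the control section (3.87-fold, 3.75 to 3.99) and at 5805 against 1365 CPM in the rIL7 section (4.25-fold, 4.17 to 4.33). Genes for collagen modification were among the high members. P4ha2, a subunit of the collagen prolyl 4-hydroxylase, was 4.39-fold (3.66 to 5.26) and 4.34-fold (3.81 to 4.94) higher, and the lysyl hydroxylase Plod2 2.46-fold and 2.52-fold. Egln1, another oxygen-sensing hydroxylase, was 2.07-fold and 2.40-fold higher, the histone demethylase Kdm3a 2.54-fold and 1.82-fold, and the mitophagy receptor Bnip3l 2.02-fold and 2.01-fold. Hilpda, which promotes lipid droplet storage, was 2.83-fold (2.46 to 3.24) and 3.53-fold (3.19 to 3.89) higher. Angptl4, a lipase inhibitor often induced by hypoxia, did not pass 1.5-fold, with 116 against 104 CPM and 188 against 154 CPM. Loxl2, a matrix cross-linking enzyme, was at 0.791-fold (0.566 to 1.08) and 1.0-fold (0.743 to 1.33).

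The 15 genes with the highest ratio in both sections together included list members and genes not counted in the lists. Of those described here, Hmox1 is in the list of hypoxic myeloid genes and Bhlhe40 in the hypoxia-associated list. Ero1l, the endoplasmic reticulum oxidase ERO1A, stood in the hypoxia-associated list under its newer symbol Ero1a and was therefore not counted there. It was at 414 against 94.7 CPM in the control section (4.37-fold, 4.03 to 4.75) and at 579 against 119 CPM in the rIL7 section (4.87-fold, 4.58 to 5.17). Hmox1, the haem-degrading enzyme heme oxygenase 1, was at 66.9 against 14.2 CPM (4.73-fold, 3.82 to 5.82) and at 332 against 74.9 CPM (4.43-fold, 4.09 to 4.80). The transcriptional repressor Bhlhe40 was 3.92-fold and 3.97-fold higher, and the immediate early gene Ier3 3.62-fold and 3.49-fold. Tnfrsf9, the costimulatory receptor 4-1BB, was 3.37-fold (3.04 to 3.72) and 2.99-fold (2.80 to 3.18) higher. The inositol phosphate kinase Itpk1 was 2.9-fold and 3.19-fold higher, and Ccng2, an atypical cyclin linked to growth arrest, 2.76-fold and 2.98-fold. The remaining members of the 15 were Mmp12, Mt1, P4ha2, Eno2, Hilpda, S100a8, S100a9 and Cxcl1.

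Within each section the ratios were also computed in 4 quadrants, which are parts of the same section and not replicates. Ero1l, Hmox1, Bhlhe40, Ier3, Tnfrsf9, Mmp12, Eno2, Hilpda, Mt1 and Ccng2 were above 1 in all 4 quadrants of both sections. S100a8, S100a9, Cxcl1, P4ha2 and Itpk1 were above 1 in 3 of 4 control quadrants, with lowest ratios of 0.955, 0.948, 0.646, 0.753 and 0.539, and in all 4 rIL7 quadrants.

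**Figure D4:**
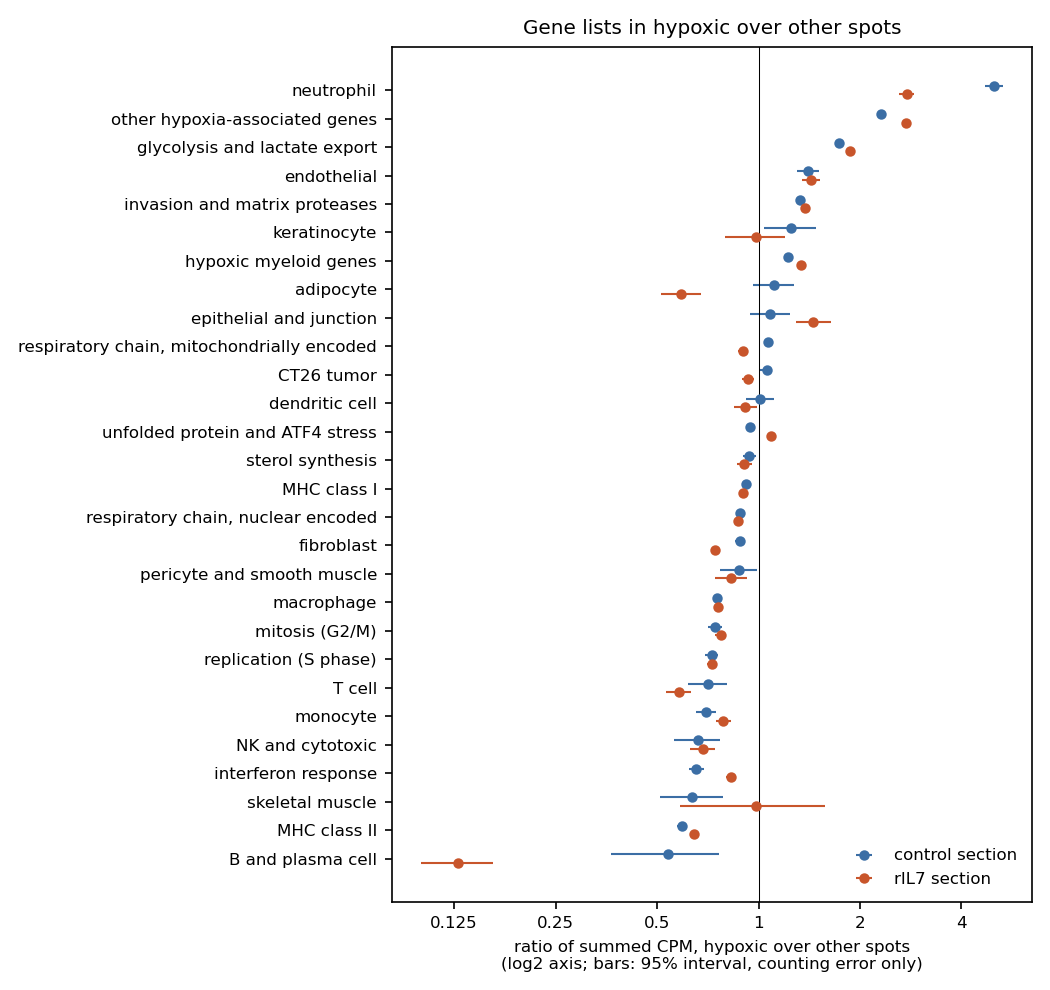
Ratio of the summed CPM in hypoxic over other spots for 28 gene lists (horizontal axis, log2 scale), blue for the control and orange for the rIL7 section, with 95% intervals for counting error only. The neutrophil, hypoxia-associated and glycolysis lists are above 1.5 in both sections, and the B and plasma cell list is the lowest in both, at 0.537 and 0.128. In the other rIL7 spots Igkc alone held 139.6 of the 186.4 CPM of the B and plasma cell list.

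Genes of the cell cycle were at a lower level. The replication list summed to 1078.4 CPM in hypoxic and 1483.0 CPM in other spots of the control section (0.727-fold, 0.696 to 0.760), and to 1160.0 against 1595.3 CPM in the rIL7 section (0.727-fold, 0.702 to 0.753). Of its 15 genes past the minimum, 5 in the control tumor and 4 in the rIL7 tumor were at least 1.5-fold lower and 0 higher. Of all genes compared, 4.04% and 4.53% were lower. The median log2 ratio of the 15 was −0.48 and −0.46. Mcm6, a subunit of the replicative helicase, was at 70.0 against 117 CPM (0.599-fold, 0.501 to 0.711) and at 91.8 against 145 CPM (0.631-fold, 0.554 to 0.715). Prim1, the primase subunit, was among the 15 lowest genes, at 0.526-fold (0.368 to 0.732) and 0.424-fold (0.300 to 0.583). For mitosis the sums were 1003.9 against 1350.9 CPM (0.743-fold, 0.710 to 0.778) and 1033.6 against 1339.5 CPM (0.772-fold, 0.743 to 0.801). Only 1 and 2 of its 16 genes were at least 1.5-fold lower, beside 4.04% and 4.53% of all genes compared, though all 16 ratios were below 1 in each section. The proliferation marker Mki67 was at 0.704-fold (0.610 to 0.809) and 0.748-fold (0.666 to 0.838). Gtse1, a mitotic gene outside the list, was at 0.544-fold (0.386 to 0.748) and 0.436-fold (0.297 to 0.619). Of the hypoxic spots, 3 in each section were in the top 10% by mitosis genes (1.35% and 1.54%).

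Respiratory genes differed less when all hypoxic spots were summed. The 27 nuclear genes of the respiratory chain summed to 0.884-fold (0.871 to 0.898) and 0.871-fold (0.860 to 0.882), with 0 of 27 past 1.5-fold in either section. Mitochondrially encoded subunits were at 1.07-fold (1.04 to 1.1) in the control tumor and 0.901-fold (0.872 to 0.931) in the rIL7 tumor, and the control value turned below 1 when only interior spots were compared. The control value joins unlike parts, since the patch of 118 spots was at 1453 CPM against 2518 CPM in other spots. Other spots at 1, 2 and 3 steps from the patch were as low, with 1444, 1580 and 1574 CPM against 2602 CPM at 4 or more. The list of unfolded protein and ATF4 stress genes was at 0.945-fold (0.918 to 0.972) and 1.09-fold (1.07 to 1.12). In the control section the patch of 118 spots was at 3046 CPM of these genes, above the 2821.3 CPM of other spots. Within the list Ppp1r15a, the stress phosphatase subunit GADD34, was the gene past 1.5-fold in both sections, at 1.97-fold (1.61 to 2.41) and 1.99-fold (1.69 to 2.33). Ddit3, the stress factor CHOP, was 1.64-fold higher (1.39 to 1.94) in the rIL7 section and at 1.19-fold (0.971 to 1.43) in the control section. The sterol synthesis list was at 0.938-fold and 0.908-fold. Its log2 ratios of −0.09 and −0.14 were close to the medians of −0.07 and −0.11 over all genes compared.

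Neutrophil genes were the group with the highest ratio in the control section. The list of 11 summed to 739 against 148 CPM there (4.99-fold, 4.69 to 5.31) and to 785 against 285 CPM in the rIL7 section (2.75-fold, 2.62 to 2.89). Of the 4 members past the minimum, 4 and 3 were at least 1.5-fold higher, beside 2.59% and 2.80% of all genes compared. S100a9, a calprotectin subunit abundant in neutrophils, was at 390 against 57.5 CPM (6.79-fold, 6.19 to 7.43) and at 394 against 134 CPM (2.93-fold, 2.74 to 3.14), and its partner S100a8 was 5.01-fold and 2.86-fold higher. Cxcl1, a chemokine that attracts neutrophils, was at 74.0 against 9.15 CPM (8.09-fold, 6.48 to 10.1) and at 90.4 against 32.3 CPM (2.80-fold, 2.42 to 3.23). Cxcl2, a related chemokine below the minimum level, had 45.1 against 1.81 CPM and 68.6 against 11.2 CPM. Other cells can also express these genes. The receptor Cxcr2, which marks neutrophils more narrowly, was near the lowest levels measured, at 5.58 against 3.29 CPM and 6.23 against 3.11 CPM.

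Among the control hypoxic spots, the neutrophil genes were high in the large patch and not outside it. Its 118 spots had 1662.2 CPM of the neutrophil list, while the 104 hypoxic spots outside it had 146 CPM, close to the 148 CPM of the other spots. Spots that were not in the patch but 1 step from it had 360.5 CPM, against 141.5 CPM at 4 or more steps, and 103 of the 222 control spots in the top 10% by neutrophil genes were hypoxic. Cxcl1 was at 176 CPM in the patch, 8.33 CPM in the hypoxic spots outside it and 9.15 CPM in other spots. Glycolysis genes were higher in both, with 22862 CPM in the patch and 18822 CPM in the hypoxic spots outside it, against 11766 CPM in other spots. In the rIL7 section neutrophil genes reached 1062.0, 956, 865 and 322 CPM in the 4 patches and 596 CPM in the hypoxic spots outside them, against 285 CPM. All these values were above those of other rIL7 spots. The control patch was also shallower, with a median of 6309.5 UMIs per spot against 10881 in the hypoxic spots outside it, and 36 of its spots had under 5000 UMIs. The part of depth in the neutrophil difference was not tested.

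Il1b, the gene of interleukin 1β, was at 375 CPM in the control patch, 110 CPM in the hypoxic spots outside it and 124 CPM in other spots. Over all hypoxic spots its ratio was 1.72 (1.54 to 1.90) in the control tumor and 1.73 (1.60 to 1.87) in the rIL7 tumor. Arg1, the arginase of regulatory myeloid cells, was higher in the patch and outside it, with 23.3 and 31.6 CPM against 10.9 CPM. Its ratios were 2.60 (1.91 to 3.50) and 2.53 (2.29 to 2.79), at levels of 28.4 CPM in control and 185 CPM in rIL7 hypoxic spots. Ptgs2, the cyclooxygenase COX-2, was 2.19-fold (1.84 to 2.59) and 3.43-fold (3.10 to 3.78) higher, but its control log2 ratio was −0.09 in the hypoxic spots outside the patch. Nos2, the inducible nitric oxide synthase, had 8 UMIs in control hypoxic spots and 77 in rIL7 ones, with ratios of 8.51 (2.92 to 23.9) and 5.75 (4.23 to 7.78). Spp1, the osteopontin gene, barely differed, at 1.08-fold (1.05 to 1.11) and 1.1-fold (1.08 to 1.12). Pf4, a platelet chemokine also made by macrophages, was at 1.26-fold and 1.48-fold. In the whole list of hypoxic myeloid genes, 5 of 10 members past the minimum were at least 1.5-fold higher in each section. The shares over all genes compared were 2.59% and 2.80%.

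General macrophage genes summed to a lower level, with few single genes past 1.5-fold. The list summed to 3930.3 against 5222.1 CPM in the control section (0.753-fold, 0.735 to 0.770) and to 4881.2 against 6434.6 CPM in the rIL7 section (0.759-fold, 0.746 to 0.772), with 1 of 12 genes at least 1.5-fold lower in each, beside 4.04% and 4.53% of all genes compared. Of the 12, 2 control and 4 rIL7 ratios were above 1. Lyz2, the lysozyme of myeloid cells, was at 0.639-fold (0.609 to 0.671) and 0.696-fold (0.674 to 0.718), and the complement gene C1qb at 0.701-fold and 0.721-fold. Cd14, a receptor of monocytes and macrophages, was at 1.19-fold (1.01 to 1.41) and 1.33-fold (1.16 to 1.51). Among monocyte genes, Ly6c2 was one of the 15 lowest genes, at 13.2 against 29.2 CPM (0.451-fold, 0.292 to 0.668) and 8.66 against 28.1 CPM (0.308-fold, 0.198 to 0.460). The chemokine receptor Ccr2, which brings monocytes into tissue, was at 0.668-fold (0.546 to 0.811) and 0.578-fold (0.472 to 0.702). The monocyte list was at 365.6 CPM in the large control patch. Other spots at 1, 2 and 3 steps from it were about as low, with 403.2, 348.5 and 433.7 CPM against 645.3 CPM at 4 or more. Low monocyte genes there were thus not particular to the hypoxic spots of the patch.

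Antigen presentation by MHC class II was lower in both sections. The list summed to 2004.2 against 3391.1 CPM in the control section (0.591-fold, 0.572 to 0.610) and to 2573.4 against 4003.2 CPM in the rIL7 section (0.643-fold, 0.628 to 0.658). Of 7 genes past the minimum, 5 were at least 1.5-fold lower in each section, beside 4.04% and 4.53% of all genes compared. H2-Aa, a class II chain, was at 185 against 371 CPM (0.499-fold, 0.448 to 0.555) and at 244 against 445 CPM (0.547-fold, 0.506 to 0.591), below 1 in all 4 quadrants of both sections. H2-DMb1, a peptide-loading chain, was at 0.492-fold and 0.509-fold. Hypoxic spots and the top 10% of spots by class II genes had 0 spots in common in either section, which allows a share of up to 1.35% of control and 1.54% of rIL7 hypoxic spots. In the control section the class II list was at 1103.4 CPM in the large patch and at 2582.6 CPM in the hypoxic spots outside it. Spots around the patch were about as low, with 1230, 1286 and 1522 CPM at 1, 2 and 3 steps against 3566 CPM at 4 or more, so the low level was not particular to its hypoxic spots. MHC class I genes differed less, at 0.921-fold (0.906 to 0.935) and 0.902-fold (0.891 to 0.913), with 0 of 9 past 1.5-fold. Their summed log2 ratios of −0.12 and −0.15 were close to the medians of −0.07 and −0.11 over all genes compared. In the control section they were at 6985 CPM in the patch and at 7162, 7294 and 7997 CPM in other spots 1, 2 and 3 steps away. At 4 or more steps the level was 9600 CPM.

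Lymphocyte transcripts were lower too, at levels where single genes rest on few UMIs. The T cell list summed to 115 against 163 CPM in the control section (0.707-fold, 0.616 to 0.809) and to 199 against 344 CPM in the rIL7 section (0.580-fold, 0.532 to 0.631). Of its 12 genes 2 passed the minimum, and Trbc1, a T cell receptor constant region, was at 0.537-fold (0.439 to 0.652) in the rIL7 section. Near-identical constant regions share reads, so Trbc1 and Trbc2 are uncertain one by one. Cytotoxic and NK genes were at 0.660-fold (0.563 to 0.769) and 0.684-fold (0.627 to 0.744). In the large control patch they were at 58.35 CPM. Other spots 1, 2 and 3 steps away were also low, with 83.62, 64.40 and 69.19 CPM against 139.9 CPM at 4 or more. T cell genes had 107.6 CPM in the patch, 137.5 and 113.1 CPM at 1 and 3 steps, against 166.0 at 4 or more. These low levels were thus not particular to the hypoxic spots of the patch. Hypoxic spots outside the patch had 108 CPM of cytotoxic and 120 CPM of T cell genes, against 135 and 163 CPM in other spots. The cytotoxic granule gene Gzmb was at 0.539-fold (0.342 to 0.811) in the control tumor and 0.915-fold (0.737 to 1.13) in the rIL7 tumor. B and plasma cell genes had 33 and 69 UMIs in the hypoxic spots and ratios of 0.537 (0.366 to 0.761) and 0.128 (0.0995 to 0.163). In the other rIL7 spots the immunoglobulin gene Igkc alone held 139.6 of the 186.4 CPM of this list. The rIL7 ratio therefore rests largely on 1 gene. Il7, the gene of the cytokine that was injected, had 1 and 2 UMIs in hypoxic spots, and its receptor Il7r 8 and 18 UMIs, with intervals that include 1.

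Vessel genes split within their list. The endothelial list of 16 was at 398 against 284 CPM (1.40-fold, 1.30 to 1.51) and 441 against 308 CPM (1.43-fold, 1.35 to 1.52). Of its 6 members past the minimum, 2 were at least 1.5-fold higher in each section, beside 2.59% and 2.80% of all genes compared. Apln, the apelin ligand of endothelial tip cells, was 2.56-fold (2.13 to 3.06) and 2.37-fold (2.05 to 2.72) higher, and Esm1, a tip cell proteoglycan, 2.09-fold (1.85 to 2.36) and 2.54-fold (2.32 to 2.77). General endothelial genes were not higher. The adhesion molecule Pecam1 was at 19.3 against 22.5 CPM (0.856-fold, 0.598 to 1.19) and 17.3 against 25.3 CPM (0.685-fold, 0.503 to 0.916), and Egfl7, an endothelial matrix protein, at 0.955-fold (0.703 to 1.27) and 0.461-fold (0.305 to 0.670). The median log2 ratio of the 6 members past the minimum was 0.01 and −0.16. The cadherin Cdh5, below the minimum, was at 8.62 against 10.1 CPM and 5.19 against 9.54 CPM. Other cells, tumor cells included, can express Apln and Esm1.

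Stromal genes were lower, more so in the rIL7 section. The fibroblast list summed to 0.880-fold (0.854 to 0.907) in the control tumor and 0.744-fold (0.725 to 0.763) in the rIL7 tumor. At least 1.5-fold lower were 2 and 4 of its 8 genes, beside 4.04% and 4.53% of all genes compared. The collagen gene Col3a1 was at 344 against 452 CPM (0.761-fold, 0.703 to 0.823) and 269 against 552 CPM (0.487-fold, 0.453 to 0.524), whereas the proteoglycan gene Dcn was at 1.23-fold and 1.21-fold. The log2 ratio of the list was 0.00 in the control section when the patch was left out. Some proteases of the matrix were higher. Mmp12, the macrophage elastase, was at 158 against 28.6 CPM (5.52-fold, 4.80 to 6.34) and 444 against 105 CPM (4.23-fold, 3.95 to 4.53), and the collagenase Mmp13 at 2.29-fold (1.99 to 2.62) and 2.60-fold (2.39 to 2.82). Mmp9, a gelatinase, was at 0.756-fold (0.587 to 0.961) and 0.740-fold (0.654 to 0.834). The tumor list, Rpl39l and Baiap2l1, was near even at 1.06-fold (1.01 to 1.1) and 0.930-fold (0.894 to 0.967), and the rIL7 value moved above 1 with median-of-ratios factors.

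Interferon-stimulated genes were lower in control hypoxic spots and less so in those of the rIL7 section. The list was at 743 against 1135.2 CPM in the control section (0.654-fold, 0.620 to 0.690) and at 1272.8 against 1539.3 CPM in the rIL7 section (0.827-fold, 0.799 to 0.855). The large control patch was at 597.7 CPM. Other spots at 1, 2 and 3 steps from it were about as low, with 617.0, 500.0 and 504.6 CPM against 1186 CPM at 4 or more. The low level there was thus not particular to the hypoxic spots of the patch. At least 1.5-fold lower were 6 of 13 genes in the control tumor and 1 in the rIL7 tumor, where 1 was higher. Of all genes compared, 4.04% and 4.53% were lower. Of the 6 genes whose ratio was most raised in the rIL7 relative to the control section, Apol9a, Isg15, Rsad2, Oas3 and Herc6 are known interferon targets, and Stc1 is a hypoxia-associated hormone gene. Isg15, a ubiquitin-like modifier, was at 94.3 against 172 CPM in the control (0.549-fold, 0.471 to 0.636) and at 154 against 110 CPM in the rIL7 section (1.40-fold, 1.27 to 1.55). The antiviral gene Rsad2 was at 0.912-fold (0.657 to 1.24) and 2.25-fold (1.81 to 2.79). Cxcl9, a chemokine that attracts T cells and a target of interferon γ, was lower in both sections, at 0.634-fold (0.493 to 0.803) and 0.376-fold (0.325 to 0.434). Stc1 itself was at 35.5 against 34.2 CPM (1.04-fold, 0.801 to 1.33) and 31.9 against 12.7 CPM (2.52-fold, 1.97 to 3.19), so the level in hypoxic spots was alike and that in other spots was not. None of these differences between the sections was tested.

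On the other side, the 6 genes whose ratio of hypoxic over other spots was lowest in the rIL7 relative to the control section were Ighg2c, Igkc, Ighg2b, Ogn, Cxcl1 and Slpi. This concerns the ratios and not the levels, since in the hypoxic spots themselves Igkc, Ighg2b, Slpi and Cxcl1 had more CPM in the rIL7 section (13.5 against 1.01, 5.54 against 1.01, 14.2 against 5.07, and 90.4 against 74.0). The 3 immunoglobulin genes passed the minimum level only through the other spots of the rIL7 section, so their place in this ranking is no result about the control section. Igkc, the immunoglobulin κ constant gene, was at 13.5 against 140 CPM in the rIL7 section (0.0967-fold, 0.0686 to 0.133), while the control section held 2 UMIs in hypoxic and 35 in other spots. Ighg2c had 0 and 2 UMIs in the control section, which allows no ratio, and 8 and 1070 UMIs in the rIL7 section, and it was ranked with a floor of 3 UMIs. Ogn, a matrix proteoglycan gene, was at 0.930-fold (0.592 to 1.40) and 0.293-fold (0.19 to 0.433), and Slpi, a protease inhibitor gene, at 0.872-fold (0.408 to 1.66) and 0.352-fold (0.251 to 0.481), the latter turning above 1 (log2 ratio 0.51) when only interior spots were compared and (0.50) when each gene was divided by its section mean. Near-identical immunoglobulin genes can share reads, so Ighg2b and Ighg2c are uncertain one by one.

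Set side by side, the hypoxic spots of the sections had like levels of several groups. Glycolysis genes were 1.08-fold higher (1.07 to 1.09) in rIL7 than in control hypoxic spots, mitosis genes 1.03-fold (0.972 to 1.09) and neutrophil genes 1.06-fold (0.995 to 1.14). Other hypoxia-associated genes were 1.54-fold higher (1.52 to 1.57), against 1.31-fold (1.30 to 1.32) in the other spots. Mt1 alone held 2763 of the 9155 CPM in control and 5805 of the 14138 CPM in rIL7 hypoxic spots. A large part of the difference in this sum is therefore 1 gene. Cytotoxic genes were 2.28-fold higher (1.92 to 2.71) in rIL7 hypoxic spots and 2.19-fold (2.10 to 2.29) in the other rIL7 spots, and T cell genes 1.73-fold (1.48 to 2.03) and 2.11-fold (2.03 to 2.20). B and plasma cell genes were 1.43-fold higher (0.930 to 2.23) in rIL7 hypoxic spots but 5.98-fold (5.51 to 6.5) in the other spots. Igkc alone held 139.6 of the 186.4 CPM of this list in other rIL7 spots and 1.668 of the 31.17 CPM in other control spots. The 5.98-fold value is therefore largely 1 gene. Mitochondrially encoded subunits were at 0.516-fold (0.495 to 0.538) and 0.612-fold (0.604 to 0.620). With 1 section per group these ratios compare 2 libraries.

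**Figure D5:**
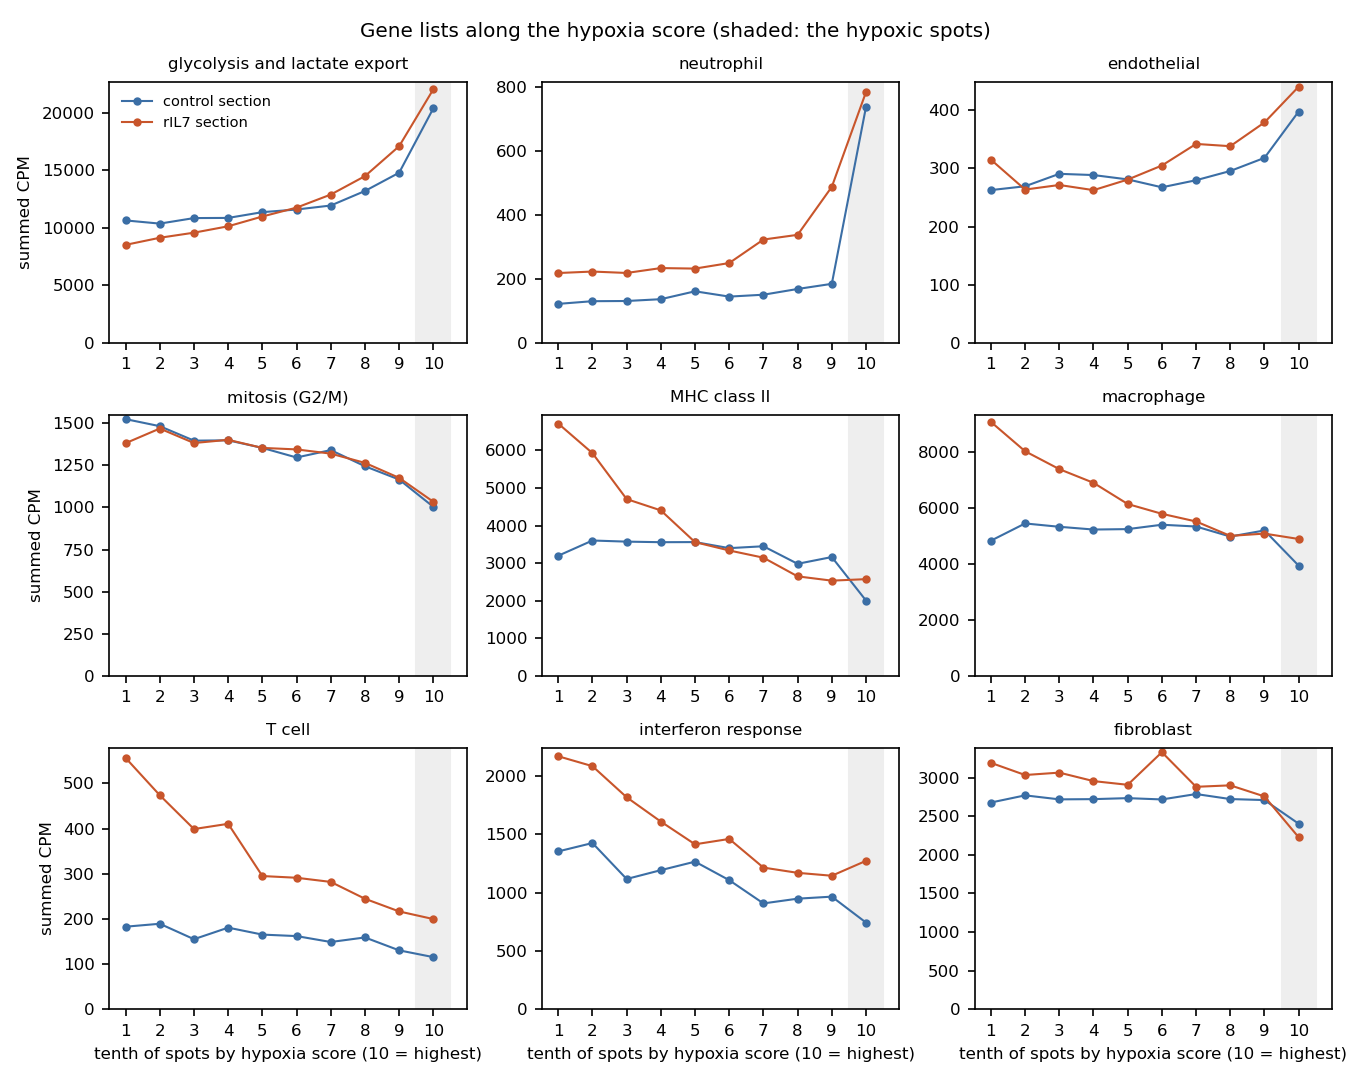
Summed CPM (vertical axes, from 0) of 9 gene lists in 10 equal bins of spots ordered by hypoxia score (horizontal axes, bin 10 highest, shaded), blue for the control and orange for the rIL7 section. In the control section the neutrophil list stays between 121.5 and 184.3 CPM in the lower 9 bins and reaches 738.7 CPM in the highest.

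Along the score, some lists changed gradually and others mainly in the highest of 10 equal bins. In the rIL7 section glycolysis genes were at 8513 CPM in bin 1, 17103 CPM in bin 9 and 22059 CPM in bin 10, the hypoxic spots. Mitosis genes in the control section were at 1525 CPM in bin 1, 1354 CPM in bin 5 and 1004 CPM in bin 10. Neutrophil genes in the control section were at 121.5 CPM in bin 1, 184.3 CPM in bin 9 and 738.7 CPM in bin 10, while in the rIL7 section bin 9 already had 488.3 CPM. MHC class II genes in the control section were between 2981 and 3601 CPM in the lower 9 bins and at 2004 CPM in bin 10. In the rIL7 section they were at 6712 CPM in bin 1, 3557 CPM in bin 5 and 2573 CPM in bin 10. T cell genes there were at 556.4 CPM in bin 1 and 199.4 CPM in bin 10.

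Distance from the hypoxic spots was measured in grid steps. Spots 1 step away from any hypoxic spot still had raised glycolysis genes, with 13417 CPM in the control tumor and 15209 CPM in the rIL7 tumor, against 11179 and 9291 CPM at 4 or more steps. Neutrophil genes dropped within the first step, from 738.7 to 178.0 CPM in the control tumor and from 785.3 to 436.8 CPM in the rIL7 tumor. Replication genes were back at 1376 and 1542 CPM in the spots next to hypoxic ones, compared with 1078 and 1160 CPM in the hypoxic spots. Macrophage genes in the rIL7 section were between 5158 and 5405 CPM at 1 to 3 steps and at 8246 CPM at 4 or more steps, and B and plasma cell genes were at 30.22 CPM next to hypoxic spots and at 416.3 CPM at 4 or more steps. The B and plasma cell list was largely Igkc there, with 139.6 of 186.4 CPM over all other rIL7 spots. In the control section macrophage genes were between 5102 and 5423 CPM at every distance from any hypoxic spot, but around the large patch alone they were at 3298, 3508 and 3583 CPM at 1, 2 and 3 steps, against 5373 CPM at 4 or more.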

How the data were processed

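The data were Visium spatial RNA counts of 1 control and 1 rIL7 tumor section. The authors processed the reads with Space Ranger 1.1.0 against the mouse genome mm10 (GRCm38), and deposited 1 matrix per section of UMI counts, not normalized, for 32285 features, with a table of spot positions. Image scale factors were not used here.

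Spots with more than 200 genes and under 10% mitochondrial UMIs were kept, which removed 2 control spots and 1 rIL7 spot. Counts of gene IDs that share a symbol (38 symbols) were added. Each section's spots were ranked by the summed CPM of the 8 score genes and the top 10% taken. The score, the 30 gene lists and the comparisons were chosen with earlier results of these data known. For each set of spots a gene's UMIs were added and scaled to CPM by the set's total. Genes needed a mean of at least 20 CPM over both sections and counted as higher or lower from 1.5-fold, with the score genes left out. A set at 0 UMIs was given a floor of 3. Intervals are exact (Clopper-Pearson), 95%, and cover counting error only. Since each group is 1 section, no count model was fitted and no p-value computed, and depth per section limits rare genes. The ratios and intervals were run on simulated Poisson counts of the pooled sets. The simulation had no variation between spots and no choice of spots by score, so it checks the calculation only.

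Named genes were the 8 score genes, the 15 with the highest smaller and the 15 with the lowest larger log2 ratio of the sections, the 6 with the largest difference between sections each way, list members where a list is described, and Arg1, Spp1, Il1b, Nos2, Pf4, H2-Aa, Il7 and Il7r. Gene positions are from RefSeq for GRCm38, and all 55 named genes matched by symbol. Of the listed symbols, 3 (Ero1a, Mx1 and Mmp1a) were matched to no feature, and Ero1a is listed in the files under its older symbol Ero1l, which the lists did not count. Steps are moves between the 6 neighbours of the hexagonal grid, patches are connected hypoxic spots, and quadrants split a section at its median row and column. Alternatives covered spot and gene filters, the score, the share of spots, depth, scaling (edgeR 4.0.16, DESeq2 1.42.0 in R 4.3.3) and position. Other analyses used Python 3.11.15, numpy 2.4.6, scipy 1.17.1 and pandas 2.3.3. Promoter motifs were not analysed here.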

Additional observations from a re-analysis of the deposited data

Results flagged for a closer look

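Several results pointed opposite ways in the hypoxic spots of the sections, each with an interval that excluded a ratio of 1, and none of these differences was tested because each group is 1 section. Apol9a, an interferon target, had a log2 ratio of −0.71 in control and 0.71 in rIL7 hypoxic spots. The mitochondrially encoded respiratory chain list was at 0.09 and −0.15, but the control value was above 0 in 1 of 4 quadrants, its members were split (4 above and 5 below 0), and it turned negative in 5 of the alternative settings. The unfolded protein and ATF4 stress list was at −0.08 and 0.13. Its control value was near the control median of −0.07 over all 7608 genes. The large control patch was at 3046 CPM of this list, above the 2821.3 CPM of other control spots. The CT26 tumor list was at 0.08 and −0.10, where the rIL7 value was 0.02 with median-of-ratios factors.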

How the results depend on the processing

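Of 51 list ratios called by their interval, 43 kept their direction under all 22 settings. So did 193 of 202 gene ratios called by their interval and by 1.5-fold. Some settings could hardly change a direction. For example, leaving Egln3 or Adm out of the score kept 221 and 222 of the 222 control hypoxic spots. The cause of the changes was not tested. In this order, the genes higher in the control section (197), lower there (307), higher in the rIL7 section (213), lower there (345), higher in both (141) and lower in both (104) became, with each gene divided by its section mean, 115, 120, 104, 100, 69 and 13, with a 5 CPM minimum 382, 847, 372, 940, 222 and 294, without a minimum, where sets at 0 were given 3 UMIs, 5551, 1683, 5168, 2166, 3305 and 641, and at 2-fold 52, 22, 71, 43, 44 and 7. With the top 20% of spots, the counts but for genes higher in the rIL7 section were 83, 46, 186, 73 and 16. The top 5% gave 456 higher and 903 lower control genes, 654 lower rIL7 genes and 274 lower in both. Thinning to 5000 UMIs before scoring first left out spots with fewer UMIs. Among these were 40 control hypoxic spots, 36 of them in the large patch, and 2 rIL7 hypoxic spots. The ratios still used the full counts. This setting gave 120 and 182 control genes, 93 higher in both and 52 lower in both. With 1 cutoff 476 control genes were lower, and with mean per-spot CPM 503, with 167 lower in both. TMM gave 212 lower rIL7 genes and 66 lower in both, and median-of-ratios factors 193 lower control genes, 183 lower rIL7 genes and 55 lower in both. Glycolysis genes (17 in the control, 18 in the rIL7 section) numbered 10 in the control section with the top 20% and with section means, and 7 and 8 at 2-fold. The control edge share (15.8%) was 4.55% with the top 5%, and with edges of 1 and 4 steps 7.24% and 25.3%; in the rIL7 section (12.3%) it was 18.5% with scores pooled over neighbours, and 2.56% and 27.2% with those edges. An alternative chosen after seeing the data kept only hypoxic spots outside patches of 10 or more. It gave 104 higher control genes, 66 higher in both and a control edge share of 34%, and reversed control log2 ratios for the neutrophil (−0.02), MHC class I (0.05) and fibroblast (0.00) lists, Cxcl1 (−0.14), Il1b (−0.18), Clec4d (−1.43), Csf3r (−0.24) and Ptgs2 (−0.09), and the rIL7 sterol synthesis list (0.01). Other log2 ratios that reversed were the control mitochondrially encoded list (top 5% −0.42, 1 cutoff −0.07, section mean −0.02, without Bnip3 −0.10, interior −0.20), the control keratinocyte list (top 5% −0.78, pooled score −0.97, without Slc2a1 −0.98, interior −0.46), the rIL7 CT26 tumor list (median-of-ratios 0.02), the rIL7 dendritic cell list (interior 0.05), control Prf1 (section mean 0.43), and in the rIL7 section Ighg2c (0.18), Slpi (0.50) and Mmp2 (0.12) with section means and Slpi in the interior (0.51). No paired analysis was possible because each group is 1 section, and for the same reason no replicate could be left out. Depth limits genes with few UMIs, such as Egln3, Adm, Nos2, Il7 and the immunoglobulin genes, and 40 of the control hypoxic spots had under 5000 UMIs.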
